A study of Homo sapiens with 24 samples.

Results

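H3K27Ac ChIP-seq records where histone H3 carries acetylation on lysine 27, and 1958 of the 16692 regions enriched over input in DCIS shANCO1 cells had no counterpart in the other groups. These regions were chosen by row presence alone: a region of the DCIS shANCO1 table was taken when it overlapped, by 1 bp or more, no region of the tables for DCIS shCTRL, 10A shANCO1 or 10A shCTRL. The 4 tables against input held 76271 regions in all. 24 libraries formed 8 groups of 3, which crossed the MCF10A (10A) and MCFDCIS (DCIS) lines with lentiviral knockdown of ANCO1 (shANCO1) or an shGFP control (shCTRL), and with H3K27Ac immunoprecipitation or input. All groups grew in the same medium with horse serum, EGF, hydrocortisone, insulin and cholera toxin, and the labels do not say whether replicates were separate cultures. The shANCO1 cells carried hairpin #3 per the study's figure legends, which the labels leave unnamed.

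10A is an immortalized mammary epithelial line used as a pre-malignant model, and DCIS is a derivative that models triple-negative ductal carcinoma in situ. ANCO1, encoded by ANKRD11, is a nuclear protein that binds coactivators and histone deacetylases. H3K27Ac marks active promoters and enhancers. At an active enhancer the acetylated nucleosomes stand on either side of an open stretch where transcription factors sit. In basal-like mammary cells those factors include AP-1, the FOS and JUN dimers that read TGANTCA, and TEAD proteins, through which YAP and TAZ act.

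Each deposited value describes a whole group, with no value per library, so the spread between replicates and the read depth behind a region were unknown. A region's log2 fold change belongs to 1 representative window inside it. No test was run here, since regions are not replicates. The shANCO1 H3K27Ac libraries that chose the regions also entered the direct comparison with shCTRL, and all changes given here are descriptions. In the authors' tables, "up" and "down" mean an FDR under 0.05 with that direction.

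Among the regions found only in DCIS shANCO1, the largest direct DCIS change lay inside FXYD5. This gene encodes dysadherin, a membrane protein that modulates the sodium pump and weakens cell-cell adhesion. The centres of 2 other regions, chosen for display after their values were seen, are shown on the plus strand of GRCh38 with every TGANTCA in capitals. They are an intronic region of the transmembrane collagen gene COL13A1 and the region farthest from any region of the other 3 tables, which the authors' annotation places in an intron of LOC105378178 on chromosome 14.
COL13A1 chr10:69864401-69864700: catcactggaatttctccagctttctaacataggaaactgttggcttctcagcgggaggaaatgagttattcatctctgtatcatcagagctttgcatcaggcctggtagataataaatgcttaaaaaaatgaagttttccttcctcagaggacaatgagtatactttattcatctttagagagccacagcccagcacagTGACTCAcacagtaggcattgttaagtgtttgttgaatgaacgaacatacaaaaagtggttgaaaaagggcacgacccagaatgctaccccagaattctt
LOC105378178 chr14:48562001-48562200: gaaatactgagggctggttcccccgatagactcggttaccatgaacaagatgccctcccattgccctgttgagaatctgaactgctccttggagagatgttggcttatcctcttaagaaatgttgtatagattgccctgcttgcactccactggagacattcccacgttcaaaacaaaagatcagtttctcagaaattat

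In FXYD5, 4 neighbouring regions covered chr19:35163201-35164500, chr19:35164801-35166100, chr19:35166801-35168200 and chr19:35168601-35168800. Their log2 enrichment over DCIS input was 3.71, 4.98, 3.61 and 2.65. The first holds a protein-coding start site and exon sequence in GENCODE, and the other 3 are intronic. They lay 8471 to 14070 bp downstream of the upstream start of the gene.

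In the direct DCIS comparison, a pair of adjoining regions spanned these 4 regions. The log2 fold change of shANCO1 over shCTRL was 4.60 (FDR 6.99e-16) in the first, with 34 of 34 windows up. It was 5.88 (FDR 7.12e-15) in the second, with 36 of 36 windows up. In 10A the same stretch was tested as 3 regions of 0.62, 0.17 and 0.72 log2 units, with FDR of 0.422, 0.736 and 0.64, so none was called.

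The upstream start of FXYD5 was acetylated in more groups. It had a DCIS shANCO1 region of 15 windows with a log2 enrichment of 4.20, a DCIS shCTRL region of 2 windows with 3.72, and a 10A shANCO1 region of 11 windows with 3.16. The 10A shCTRL table had no region there. The direct change at that start was 1.36 in DCIS (FDR 0.000472) and 0.59 in 10A (FDR 0.00631). The upstream start was thus called up in both lines, though its 10A value lay below the 0.76 median of all regions tested in 10A. The downstream stretch passed the threshold in DCIS and not in 10A, and the difference between the lines was not tested.

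**Figure D1:**
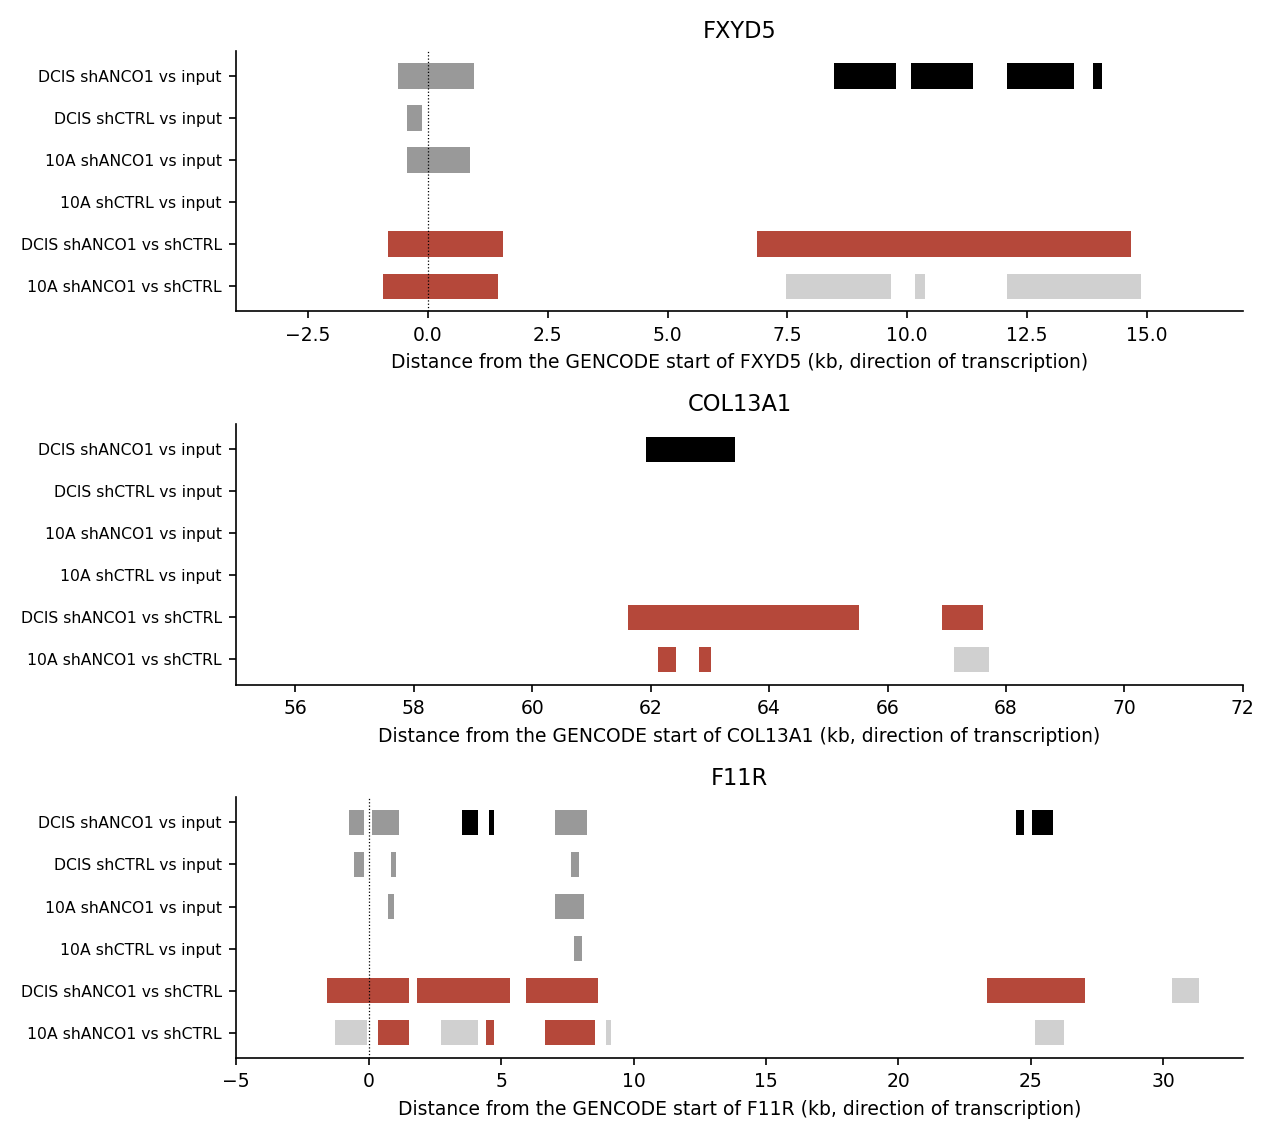
Deposited regions around FXYD5, COL13A1 and F11R, plotted as distance in kb from the GENCODE start of each gene in the direction of transcription (dotted line at 0). Each row is 1 table; black bars are the regions found only in DCIS shANCO1, grey bars are other regions enriched over input, red bars in the direct rows are up at FDR under 0.05, and pale bars were tested and not called. The 4 black bars in FXYD5 lie over direct DCIS regions with log2 fold changes of 4.60 and 5.88.

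COL13A1 had no enriched region in the other 3 tables, and its region lies in an intron. At chr10:69863801-69865300 the log2 enrichment over DCIS input was 7.68, over 11 windows. The nearest region of another table was 134800 bp away. The direct DCIS change was 3.62 (FDR 9.6e-14) with 33 of 33 windows up, and the best-matching 10A region, of 2 windows, had 1.39 (FDR 0.00317), so this site was called up in both lines although only DCIS shANCO1 had an enriched row.

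Among the 10 regions with the largest direct DCIS change in a called direct region of at least 5 windows were the 4 of FXYD5. Direct regions of fewer windows were left out of that ranking, among them those of MSR1 at 4.73 and MAGI2 at 4.61. A region at chr3:98982601-98982800 had a log2 fold change of 5.44 (FDR 2.52e-11). It lies between protein-coding genes, 80906 bp from the start of DCBLD2, which encodes a neuropilin-like receptor, and 300 bp from a region of another table. The region at chr2:14777801-14778000, 145084 bp from LRATD1, had 4.29 (FDR 5.17e-08) and was also up in 10A at 1.08 (FDR 0.0187). Both stood far from protein-coding start sites, and both bordered a mark of another group, the second at 500 bp.

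A pair of regions on chromosome 8, at chr8:89257901-89258600 and chr8:89259001-89259500, shared a direct region with a change of 4.25 (FDR 1.92e-12). RIPK2, a kinase of innate immune signalling, has the nearest start, 498316 bp from the second. The 10A value over the first was -0.07 (FDR 0.896). At chr14:48562001-48562200, 1022600 bp from any region of the other 3 tables, the change was 4.04 (FDR 6.57e-11), and at chr5:20679501-20679800 in the non-coding LINC02241 it was 3.90 (FDR 6.09e-10). Each of these 4 was up in DCIS. None was called in 10A, where the second chromosome 8 region and the chromosome 14 region had no tested counterpart. The LINC02241 region shared 53.8% of its 24-base words with other places in the genome.

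The lowest direct changes showed that a region can be found only in DCIS shANCO1 and still sit in a stretch that lost acetylation. ARHGAP25, a GTPase-activating protein gene, had the region chr2:68809601-68809800 inside a direct region of 3400 bp with a log2 fold change of -3.49 (FDR 7.77e-09). That stretch had 7 windows down and 2 up of 29. A region on chromosome 10 at chr10:117684801-117685100 had -2.23 (FDR 0.000359), and a region in LINC02964 on chromosome 8 had -2.35 (FDR 0.0149) over 5000 bp with 5 windows down and 4 up. The representative window of such a stretch can lie outside the region that was enriched.

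The regions were small. Their median width was 300 bp against 500 bp for the other 14734 DCIS shANCO1 regions, and 36% were built from 1 window against 12.5%. Together they covered 686 kb. Median log2 enrichment over input was 4.05, with a range of 2.47 to 8.56, against 4.52 for the others. The tables against input hold almost only rows with a very low FDR, the highest being 1.24e-08 in DCIS shANCO1, so the lack of a row in another group means that no window passed that unstated limit and not that acetylation was absent.

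Many of them bordered a mark of another group. The median distance to the nearest region of the other 3 tables was 3500 bp. 759 lay under 1 kb from it, 307 between 1 and 5 kb, 583 between 5 and 50 kb and 309 at 50 kb or more. The nearest mark belonged to 10A shANCO1 alone for 1144 regions, to DCIS shCTRL alone for 561 and to 10A shCTRL alone for 64, with ties for 189.

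At the edge of the rule, 90 regions touched a region of another table without sharing a base, and 239 regions were left out for sharing 100 bp. Median log2 enrichment over input was 3.87 just inside and 3.99 just outside, and median width was 200 bp in both. Median direct DCIS change was 1.05 inside and 0.79 outside. Both sides of the limit were thus close in width and enrichment.

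**Figure D2:**
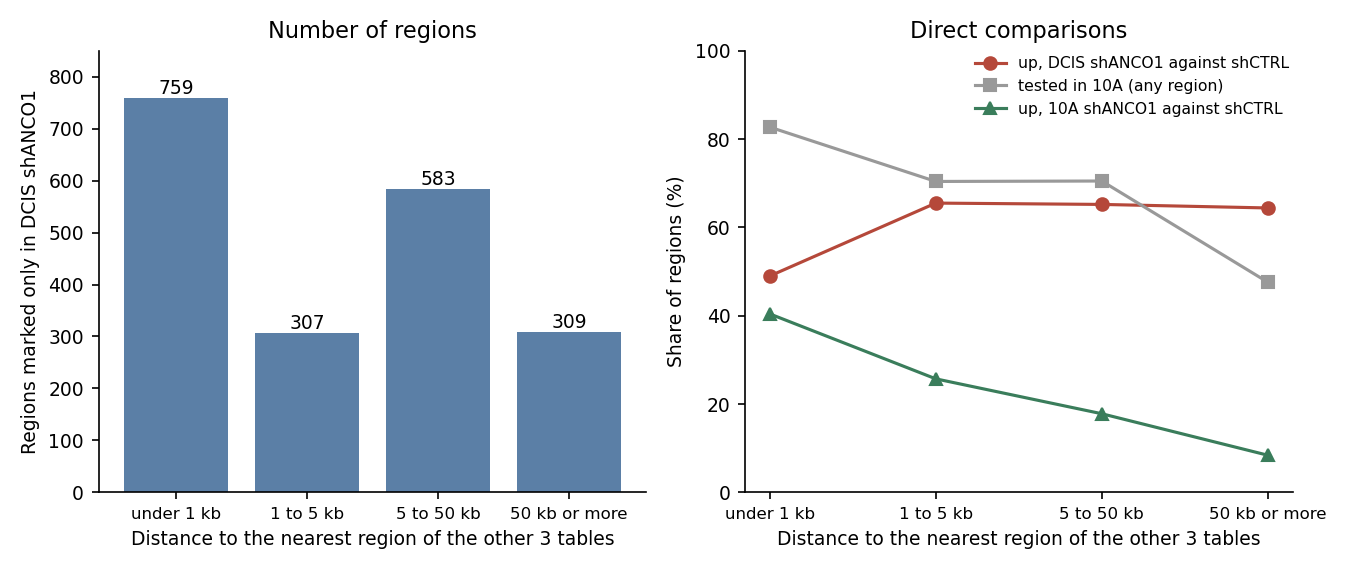
Left, the number of regions found only in DCIS shANCO1 by distance (bp between edges) to the nearest region of the other 3 tables. Right, the share of each class (%) that overlapped an up region in the direct DCIS comparison, any tested region in the direct 10A comparison, and an up region in 10A. The DCIS share was 49% under 1 kb and 64.4% at 50 kb or more, while the 10A share fell from 40.4% to 8.41%. Distances were measured to marks of 10A and DCIS shCTRL, so both trends are partly built in.

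All 1958 regions overlapped a region tested directly in DCIS, and 1152 of them (58.8%) overlapped one that was up. Of all 44790 regions tested in DCIS, 23.6% were up and 4.86% were down. Only 12 of the 1958 overlapped a down region. Counted as direct regions, 1797 were touched, and 1021 of these (56.8%) were up. Of the other DCIS shANCO1 regions, 28.2% overlapped an up region and 3% a down one.

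The size of the change followed the same order. Median log2 fold change was 1.32 with quartiles of 0.83 and 1.80, against 0.67 for the other DCIS shANCO1 regions and 0.52 for all regions of the direct table. The mirror set, 2659 regions found only in DCIS shCTRL, had a median of -1.08, with 37.9% down and 2.22% up. The rule itself favours these directions, and nothing is read from them. Both direct tables were centred above 0, at medians of 0.52 in DCIS and 0.76 in 10A. Counted as up with a change at least 1 above that median, 38.8% of the regions passed in DCIS and 0.255% in 10A. The 95th percentile of all regions tested was 2.32 in DCIS and 1.44 in 10A, so this cut was far stricter in 10A. The share of all tested regions that passed it was not computed, and the lines are not compared by it.

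Many direct regions were wide and crossed into marks of the other groups. Of the 1797 touched, 1046 overlapped no region of the other 3 tables, and 643 of these (61.5%) were up and 3 were down. Their median change was 1.37. Leaving out direct regions over DCIS shCTRL marks draws on the control libraries of the same contrast. That choice favours up calls, so nothing is read from this rate.

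The regions were not shared evenly between promoters and distal sites. A protein-coding start lay within 1 kb of 353 regions (18%), against 50% (7364) of the other DCIS shANCO1 regions, 15.3% of regions found only in DCIS shCTRL and 26% of the 11621 found only in 10A shANCO1. By the authors' own annotation, whose promoters are wider, 46.3% were promoter regions, 27.9% intronic, 1.94% exonic and 23.8% over no gene. The median distance to a start was 19342 bp.

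In DCIS the share of up calls was lower near start sites, with no test of the difference. The same split was not made for other regions, so it cannot be called particular to these. Of the 353 near a start, 76 (21.5%) overlapped an up region in DCIS, with a median log2 fold change of 0.61. Of the 1605 farther away, 1076 (67%) did, with a median of 1.44. In 10A, 36.3% of those near a start and 24.2% of those farther away overlapped an up region, while 89% and 67.8% had any tested region. The regions near a start were also richer in GC, at a median of 60.8% against 48.4%.

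In 10A, 1402 of the 1958 regions (71.6%) overlapped a region that had been tested directly, and 516 (26.4% of all) overlapped one that was up. Of all 50284 regions tested in 10A, 43.6% were up and 0.225% were down, and 2 of the 1958 overlapped a down region. Counted as direct regions, 486 of the 1340 touched in 10A (36.3%) were up. Median log2 fold change in 10A was 0.75, next to 0.76 for the whole 10A table. Of the other DCIS shANCO1 regions, 64.9% overlapped an up region in 10A. The share of up regions was thus below that of the 10A table, while the typical change sat at its median.

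Taking both lines, 294 regions overlapped an up region in each. A further 511 were up in DCIS with a 10A region that was not up, and 347 were up in DCIS with no tested 10A region. Another 222 were up in 10A and not in DCIS. The 10A share fell with distance, from 40.4% of regions under 1 kb from a region of the other 3 tables to 25.7%, 17.8% and 8.41% in the classes beyond, as did the share tested at all, from 82.7% to 47.6%. The distance was itself measured to 10A marks among others, so this fall is partly built in and nothing is read from it.

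**Figure D3:**
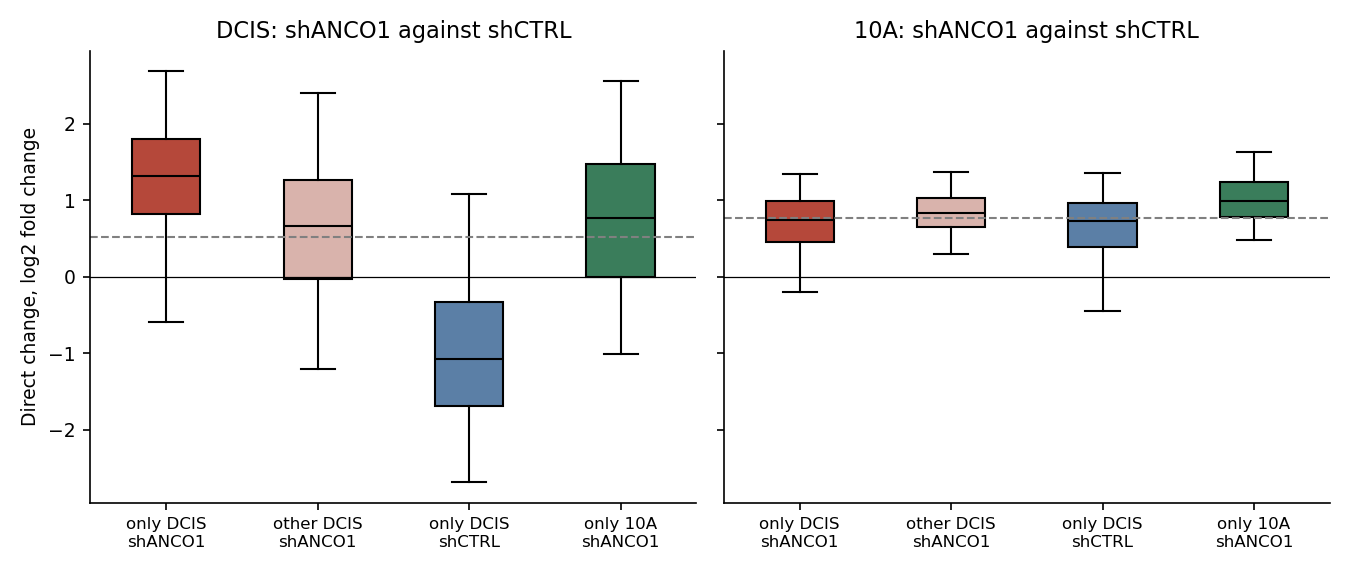
Log2 fold change of shANCO1 over shCTRL in DCIS (left) and 10A (right) for 4 sets of regions, each taken from the direct region that shares the most bases. Boxes span the quartiles with the median, whiskers the 5th to 95th percentile over regions, and the dashed line is the median of the whole direct table (0.52 in DCIS, 0.76 in 10A). Regions found only in DCIS shANCO1 had a DCIS median of 1.32 and a 10A median of 0.75.

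The 5 lowest 10A FDR values among these regions came with changes of 1.24 to 1.85. NT5E, which encodes the ectonucleotidase CD73, had an intronic region with a 10A change of 1.55 (FDR 3.31e-07) and a DCIS change of 2.92 (FDR 1.66e-08). HMGA1, an architectural chromatin protein gene, had 1.45 in 10A (FDR 4.27e-06) and 2.37 in DCIS (FDR 0.00122). PDLIM7, an actin-associated LIM protein gene, had 1.24 (FDR 4.99e-06) and 1.54 (FDR 0.00595). These 3 rose in both lines.

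KRT80, an epithelial keratin gene, had a region at its start with 1.48 in 10A (FDR 7.31e-06) and 1.37 in DCIS, which missed the threshold (FDR 0.0638). A region 40265 bp from the start of COL18A1, a basement membrane collagen gene, had 1.85 in 10A (FDR 8.15e-06) and 1.39 in DCIS (FDR 0.00268). It touched a region of another table, and KRT80 lay 200 bp from one.

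AP-1 letters stood beside the regions more than inside them. Within 500 bp centred on the midpoint, 17.7% of the regions held TGANTCA, close to 16.2% of the other DCIS shANCO1 regions and below 21.5% of all regions in the direct DCIS table. Within 1000 bp the share was 47.2% against 35.1% of the other DCIS shANCO1 regions. Among regions farther than 1 kb from a start the shares met. There 53.1% had a match within 500 bp on either side of the midpoint, against 53%. TGANTCA reads the same on both strands.

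By distance, a match 300 to 400 bp from the midpoint was found for 18.4% of the regions, against 11.1% of the other DCIS shANCO1 regions and 8.27% of those found only in DCIS shCTRL. Regions found only in 10A shANCO1 had 18.4% as well. From 1000 to 2000 bp the mean share per step was 6.6%, 6.07%, 6.15% and 6.55% in that order, so the sets met away from the regions. Among regions of 200 to 400 bp the share was 18.7%, against 14.4% of the other DCIS shANCO1 regions of that width. Both sets found after ANCO1 knockdown alone thus had a flanking peak, but it was not theirs only. The other DCIS shANCO1 regions had a lower one, at 11.1% against 6.07% farther out. Regions found only in DCIS shCTRL had their highest share, 9.18%, at 400 to 500 bp.

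The peak was higher in distal regions and in regions that were up. Regions farther than 1 kb from a start had 21% at 300 to 400 bp. For equally distal regions the share was 18.2% in the rest of the DCIS shANCO1 table, 9.05% among those found only in DCIS shCTRL and 23.1% among those found only in 10A shANCO1. Regions that overlapped an up direct region had 22%, against 13.2% of those that did not. That split was not made among distal regions alone. Up calls were more common far from start sites, so gain and distal position cannot be told apart here. At 5 kb or more from any region of the other 3 tables the share was 20%.

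**Figure D4:**
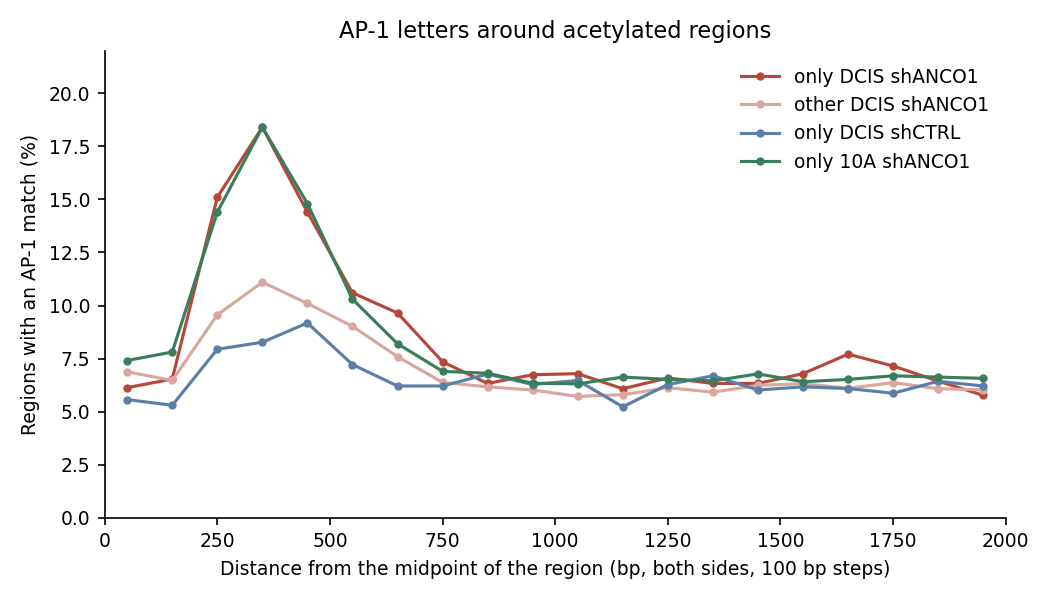
Share of regions (%) with TGANTCA at a given distance (bp) from the midpoint, both sides pooled in steps of 100 bp, for 4 sets of regions. Regions found only in DCIS shANCO1 and only in 10A shANCO1 both reached 18.4% at 300 to 400 bp, and the 4 sets lay between 6.07% and 6.6% on average from 1000 to 2000 bp.

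Other motifs were searched on both strands in the same 500 bp. GGGCGG, read by SP and KLF factors, was in 24.6% of the regions and 38.2% of the other DCIS shANCO1 regions, and CCGGAAG, read by ETS factors, in 4.19% and 9.77%. GGGCGG was in 62% of the regions near a start and 16.3% of the others. GGAATG (TEAD) was in 25.2% against 26%, TGTGGTT (RUNX) in 8.58% against 7.7%, AACNGGTT (GRHL) in 3.63% against 3.24%, TTCCNGGAA (STAT) in 1.43% against 2.07% and the NFkB motif in 1.79% against 2.45%. A match is a count of letters and not a bound site.

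The stretches below, 100 bases each on the plus strand of GRCh38 with TGANTCA in capitals, show AP-1 letters in or beside regions that were up in DCIS. Those of LRATD1, SPRR1B and EPHB2 lie wholly outside their regions, and the others lie inside. The LRATD1 stretch belongs to the chromosome 2 region above, the only 1 of those 10 regions that had a match in its central 500 bp. The other 7 were chosen after the values were seen, as named regions with a match, outside UTRs, that had the lowest DCIS FDR. COL13A1, SPOCK2, EPHB2 and CGN are intronic, A2ML1 holds coding sequence, and the regions named for LRATD1, IL1F10 and SPRR1B lie between genes. SPOCK2, a proteoglycan gene, had a DCIS change of 2.23 (FDR 2.2e-07), and A2ML1, a protease inhibitor gene of epidermis, had 2.64 (FDR 1.26e-06).
LRATD1 chr2:14778041-14778140: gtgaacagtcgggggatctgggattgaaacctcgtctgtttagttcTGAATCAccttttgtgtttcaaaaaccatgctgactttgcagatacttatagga
COL13A1 chr10:69864555-69864654: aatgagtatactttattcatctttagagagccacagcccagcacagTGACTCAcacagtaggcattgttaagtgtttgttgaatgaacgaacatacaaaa
IL1F10 chr2:113078867-113078966: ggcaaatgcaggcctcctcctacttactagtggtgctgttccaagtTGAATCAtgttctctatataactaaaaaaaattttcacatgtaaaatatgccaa
SPOCK2 chr10:72081670-72081769: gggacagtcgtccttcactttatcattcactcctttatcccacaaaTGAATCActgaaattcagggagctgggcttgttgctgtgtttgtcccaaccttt
A2ML1 chr12:8823095-8823194: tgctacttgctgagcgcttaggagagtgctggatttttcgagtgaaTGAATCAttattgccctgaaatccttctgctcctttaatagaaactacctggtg
SPRR1B chr1:153033142-153033241: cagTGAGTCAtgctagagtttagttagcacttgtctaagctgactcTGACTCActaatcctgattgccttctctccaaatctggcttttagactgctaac
EPHB2 chr1:22739807-22739906: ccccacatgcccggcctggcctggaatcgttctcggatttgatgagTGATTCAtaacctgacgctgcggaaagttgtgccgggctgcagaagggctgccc
CGN chr1:151513563-151513662: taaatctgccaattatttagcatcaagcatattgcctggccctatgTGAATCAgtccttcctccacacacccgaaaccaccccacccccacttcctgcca

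Words shared with other places in the genome were more common in these regions. In 253 of them (12.9%) at least 50% of the 24-base words occurred at more than 1 place in the reference, either strand counted. The share was 2.9% in the other DCIS shANCO1 regions, 4.96% in those found only in DCIS shCTRL and 2.25% in those found only in 10A shANCO1. Such sequence can share reads with its copies. Of the 253, 58.9% overlapped an up direct region in DCIS, and of the remaining 1705, 58.8% did, so the DCIS call rate was as high without them.

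Most regions had no other region found only in DCIS shANCO1 within 50 kb. Joined when within 50 kb of each other, they made 1491 groups, of which 1188 held 1 region, 303 held at least 2 regions, 97 at least 3 and 13 at least 5. The share of DCIS shANCO1 regions found in no other table was 11.7% overall and ran from 6.21% on chromosome 20 to 15.1% on chromosome X. On chromosome 3 the other DCIS shANCO1 regions were up in 40.2% of cases, the highest of any chromosome, and the regions found only in DCIS shANCO1 in 68.5%.

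The group with the most regions by count and bases lay on chromosome 1. There 7 regions over 88 kb covered F11R, the tight junction protein JAM-A, and NECTIN4, an adhesion molecule. Of the 7, 6 were up in DCIS, next to 58.8% of all 1958 regions. Regions of a group or gene, here and below, can share a direct region, so their up calls are not separate. F11R alone held 5. The most enriched was chr1:160995501-160996300, over UTR sequence of F11R 24796 bp from its start, with a log2 enrichment over input of 8.56 and a direct DCIS change of 3.06 (FDR 4.96e-15), with 33 of 33 windows up. Its 10A value was 0.83 (FDR 0.0561). A neighbour in the same direct region, shared 63.2% of its words with other places.

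Regions nearer the start of F11R had smaller changes. A pair of intronic regions had a DCIS change of 2.19 (FDR 0.00454), and in 10A the values were 1.13 (FDR 0.00881) and 0.65 (FDR 0.333). The second of them shared 74% of its words with other places. The region at the start shared with TSTD1 had 0.46 (FDR 0.827). NECTIN4 regions had 1.92 (FDR 1.04e-05) and 2.17 (FDR 6.23e-06) in DCIS and 0.77 (FDR 0.17) and 0.97 (FDR 0.0381) in 10A. The highest value of the group was thus at the far end of F11R and the lowest at the TSTD1 start.

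JUP encodes plakoglobin, which links cadherins to the cytoskeleton in desmosomes and adherens junctions, and no region of the other 3 tables lay over it. It held 4 of the 7 regions of a group on chromosome 17. The most enriched, chr17:41773501-41773900 in an intron, had 7.38 over input and shared a direct region with a DCIS change of 1.89 (FDR 0.00013) and a 10A value of 0.20 (FDR 0.949). The region 246 bp from the start had 0.75 in DCIS (FDR 0.434). HAP1, in the same group, had 2.19 at 3657 bp from its start (FDR 0.000176).

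CGN, which encodes the tight junction protein cingulin, held the widest region over a gene outside OPA3, at 1600 bp, in an intron. Its DCIS change was 1.73 (FDR 5.25e-06) with 31 of 34 windows up, and its 10A value was 0.89 (FDR 0.051). The widest region of all spanned 2100 bp at chr15:59553601-59555700, 56083 bp from GCNT3, an enzyme of mucin glycan synthesis. It had 2.39 in DCIS (FDR 5.97e-07) and 0.59 in 10A (FDR 0.306), and all 6 regions of its group were up in DCIS and none in 10A. OPA3, a mitochondrial protein gene, had a region of 1800 bp with 1.54 in DCIS (FDR 3.34e-05) and 1.33 in 10A (FDR 0.00348).

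A further pair of the widest regions call for care or stand far from genes. The region of 2000 bp at chr9:42421101-42423100 had 1.59 in DCIS (FDR 6.6e-05), but 79.5% of its words occurred elsewhere in the genome, at a median of 4 places. The region of 1700 bp at chr8:89542701-89544400, 213416 bp from RIPK2, had 1.87 in DCIS (FDR 1.15e-05) and 1.07 in 10A (FDR 0.0377).

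LIF, a cytokine of the IL6 family, was the centre of a group of 7 regions on chromosome 22, of which 6 were up in DCIS and 1 in 10A. The region 2842 bp from its start had 0.95 (FDR 0.0259), and the region over its UTR had 1.25 with an FDR of 0.0684. ACTN4, an actin cross-linking protein gene, held 5 of a group of 7 on chromosome 19, of which 4 were up in DCIS and 3 in 10A. DCIS changes over ACTN4 ran from 0.97 (FDR 0.176) to 1.41 (FDR 0.00129). Both groups were thus mostly up in DCIS, with changes near the median of all the regions.

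SLC7A5 and LOC101928269 held 6 regions each, the most of any gene. SLC7A5 encodes the LAT1 amino acid transporter, and none of its 6 regions overlapped an up region in DCIS, with changes from -0.17 to 0.91. 4 of them had over 50% of their words at more than 1 place. Those of LOC101928269 lie in RUNX1 introns in GENCODE and had changes of 0.97 to 1.67, and 5 of the 6 were up. The LOC101928269 region with 1.65 had 60.4% of its words at more than 1 place. Many regions over 1 gene thus did not mean a called gain.

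TRPV4, a calcium-permeable channel gene, held 5 intronic regions, all over up direct regions at 1.34 and 1.35 (FDR 0.00515 and 0.00705). Its 10A value was 0.35 (FDR 0.51). The TRPV4 region at chr12:109820601-109821000 shared 52.8% of its words with other places. PDE1C, a phosphodiesterase gene, had 5 regions with changes of 1.38 to 2.69, all up in DCIS. OSBPL1A, an oxysterol-binding protein gene, had 5 with 0.82 to 2.67, of which 4 were up, and the region with 2.67 shared 81.4% of its words with other places. LINC00592, with the starts of KRT80 and KRT7 nearest, had 5 with 0.93 to 1.80, of which 2 were up in DCIS and 4 in 10A. The LINC00592 region with 1.80 shared 79.1% of its words with other places.

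In all, 1568 genes had a region found only in DCIS shANCO1 over them in the authors' annotation, or 13.8% of the 11382 genes over any DCIS shANCO1 region. For 285 of these genes no region of the other 3 tables lay over the gene, and 61 of the 285 carry LOC or LINC names. Beyond JUP and COL13A1, examples picked after their values were seen include CTSV, the lysosomal protease cathepsin V, with 4 regions of 1.06 to 1.62 in DCIS, all up, and 92.1% of the words of 1 of them at more than 1 place. Over WDR72, 2 regions had 3.04 (FDR 2.86e-10) and lay 805900 bp or more from a region of the other 3 tables. FOXQ1, a forkhead factor gene, had 2.94 at its start (FDR 4.36e-10), and IL1F10, an interleukin-1 family cytokine gene, had 3.39 at 6483 bp from its start (FDR 1.14e-10).

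ANKRD11, the gene knocked down, held 2 of the regions, both in introns. In DCIS the changes were 1.46 (FDR 0.0131) and 2.11 (FDR 0.000489), and in 10A they were 1.32 for each (FDR 0.0115 and 0.00745). Both were up in both lines. Acetylation inside the gene does not measure its transcript, so these values do not check the knockdown.

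Among 16 axon guidance and synaptic adhesion genes with any DCIS shANCO1 region, 7 (43.8%) had a region found only in DCIS shANCO1, against 13.8% of all genes. Of their 8 regions 7 were up in DCIS, next to 58.8% of all 1958 regions and 23.6% of all regions tested. Here and for the lists below, the share of genes takes no account of gene length or regions per gene, and no enrichment was tested. Up calls were also more common far from start sites, where the regions of SEMA3A, SEMA3E, SEMA5A, NRP1, NRP2 and ROBO1 lay. NRP2, a co-receptor for semaphorins and VEGF, had 3.42 (FDR 5.5e-09) and 2.80 (FDR 7.32e-07), with 0.83 (FDR 0.102) and 0.97 (FDR 0.00109) in 10A. NRP1, its paralog, had 2.09 (FDR 5.36e-05), with 54.2% of its words at more than 1 place. SEMA3A, SEMA5A, ROBO1 and LRP1B had 1.54, 1.22, 1.40 and 1.65 and were up, and SEMA3E had 0.93 (FDR 0.164). In 10A, 4 of the 8 regions had a tested region, and those of NRP1 and 1 of NRP2 were up.

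Of 17 YAP-TEAD targets with a DCIS shANCO1 region, 6 (35.3%) had such a region, and 5 of 8 regions were up in DCIS, next to 58.8% of all 1958 regions. Besides NT5E they were LATS2, a Hippo pathway kinase, at 1.29 (FDR 0.00496), DOCK5, a RAC activator, at 2.17 (FDR 1.49e-07), PTPN14, a YAP-binding phosphatase, at 1.09 (FDR 0.0186), and RBMS3 at 1.53 (FDR 0.0133). The DOCK5 region had 70.6% of its words at other places as well, and a further DOCK5 region had 1.27 (FDR 0.0642). MYOF, a membrane repair gene, had a pair of regions at 1.31 (FDR 0.0804) that missed the threshold. In 10A, 7 of the 8 regions had a tested region and 4 were up, next to 36.8% of the 1402 regions tested there. Besides NT5E these were 1 region of MYOF at 1.77 (FDR 0.000266), the DOCK5 region of 2.17 at 1.34 (FDR 0.000277) and PTPN14 at 1.45 (FDR 0.0057).

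Growth factor receptor genes had 3 of 12 (25%), next to 13.8% of all genes. Of their regions 3 of 4 were up, next to 58.8% of all 1958 regions. EPHB2, an ephrin receptor gene, had 2.79 in an intron (FDR 3.77e-06), ERBB2, which encodes HER2, had 1.82 (FDR 6.62e-05), and IGF1R had 1.40 (FDR 0.0411) and 1.37 (FDR 0.0508). PI3K-AKT-mTOR genes had 2 of 18 (11.1%), with PIK3C2B at 2.15 (FDR 2.14e-06) and AKT2 at 0.89 (FDR 0.0479). In 10A the values of PIK3C2B and AKT2 were 0.14 (FDR 0.816) and -0.0035 (FDR 0.99). Of the receptor regions 1 of 4 had a tested region in 10A, and it was not up.

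Of 27 integrin and focal adhesion genes 4 had such a region (14.8%), near the 13.8% of all genes. Of their regions 3 of 7 were up, next to 58.8% of all 1958 regions. PTK2, the focal adhesion kinase gene, had 1.38 (FDR 0.027), ITGB3 had 1.5 (FDR 0.0762), and ACTN1 had 0.19 (FDR 0.916) and -0.98 (FDR 0.168). In 10A, 4 of the 5 tested regions of this list were up, among them those of ACTN1 at 1.45 (FDR 0.00247) and 1.33 (FDR 9.56e-05). EMT and matrix genes had 3 of 9 (33.3%), and CDH1, TNC and THBS1 at 0.55, 0.76 and 0.89 were not called in DCIS. THBS1, an adhesive matrix glycoprotein gene, was up in 10A at 0.99 (FDR 0.0321).

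Senescence and SASP genes had 3 of 18 (16.7%), next to 13.8% of all genes. Among the 3, HMGA1 and LIF had an up region and VEGFA had 0.33 (FDR 0.909). VEGFA was up in 10A at 0.86 (FDR 0.00342), as was HMGA1. AP-1 and partner factor genes had 2 of 18 (11.1%): WWTR1, which encodes TAZ, had 1.34 (FDR 0.0129), and JUNB had 1.40 with an FDR of 0.102. In 10A, WWTR1 was up at 1.18 (FDR 0.0332) and JUNB had 0.93 (FDR 0.0696). Of 5 epidermal differentiation genes with a region, SPRR1B, a cornified envelope gene, had 2.53 (FDR 1.88e-06) and 0.01 in 10A (FDR 0.983). Its region lay 66100 bp from any region of the other 3 tables.

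Marker genes matched mammary epithelium. 7 of 8 basal markers had a DCIS shANCO1 region, without KRT14, and 6 of 8 luminal markers did, without PGR and ELF5, against 1 of 7 fibroblast markers and 1 of 7 blood and endothelial markers. FOXA1, a luminal pioneer factor gene, had a region only after ANCO1 knockdown in each line. Its region found only in DCIS shANCO1 was labelled as its promoter by the authors and held the start of TTC6, with 1.63 in DCIS (FDR 9.65e-06) and -0.15 in 10A (FDR 0.744). The region shared by KRT8 and KRT18 had 0.75 (FDR 0.654) with 76.9% of its words elsewhere too. KRT17, a basal keratin gene, had 1.07 (FDR 0.134) and 0.41 (FDR 0.716). The KRT17 region at chr17:41625201-41625600 had 61.3% of its words elsewhere too.

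**Figure D5:**
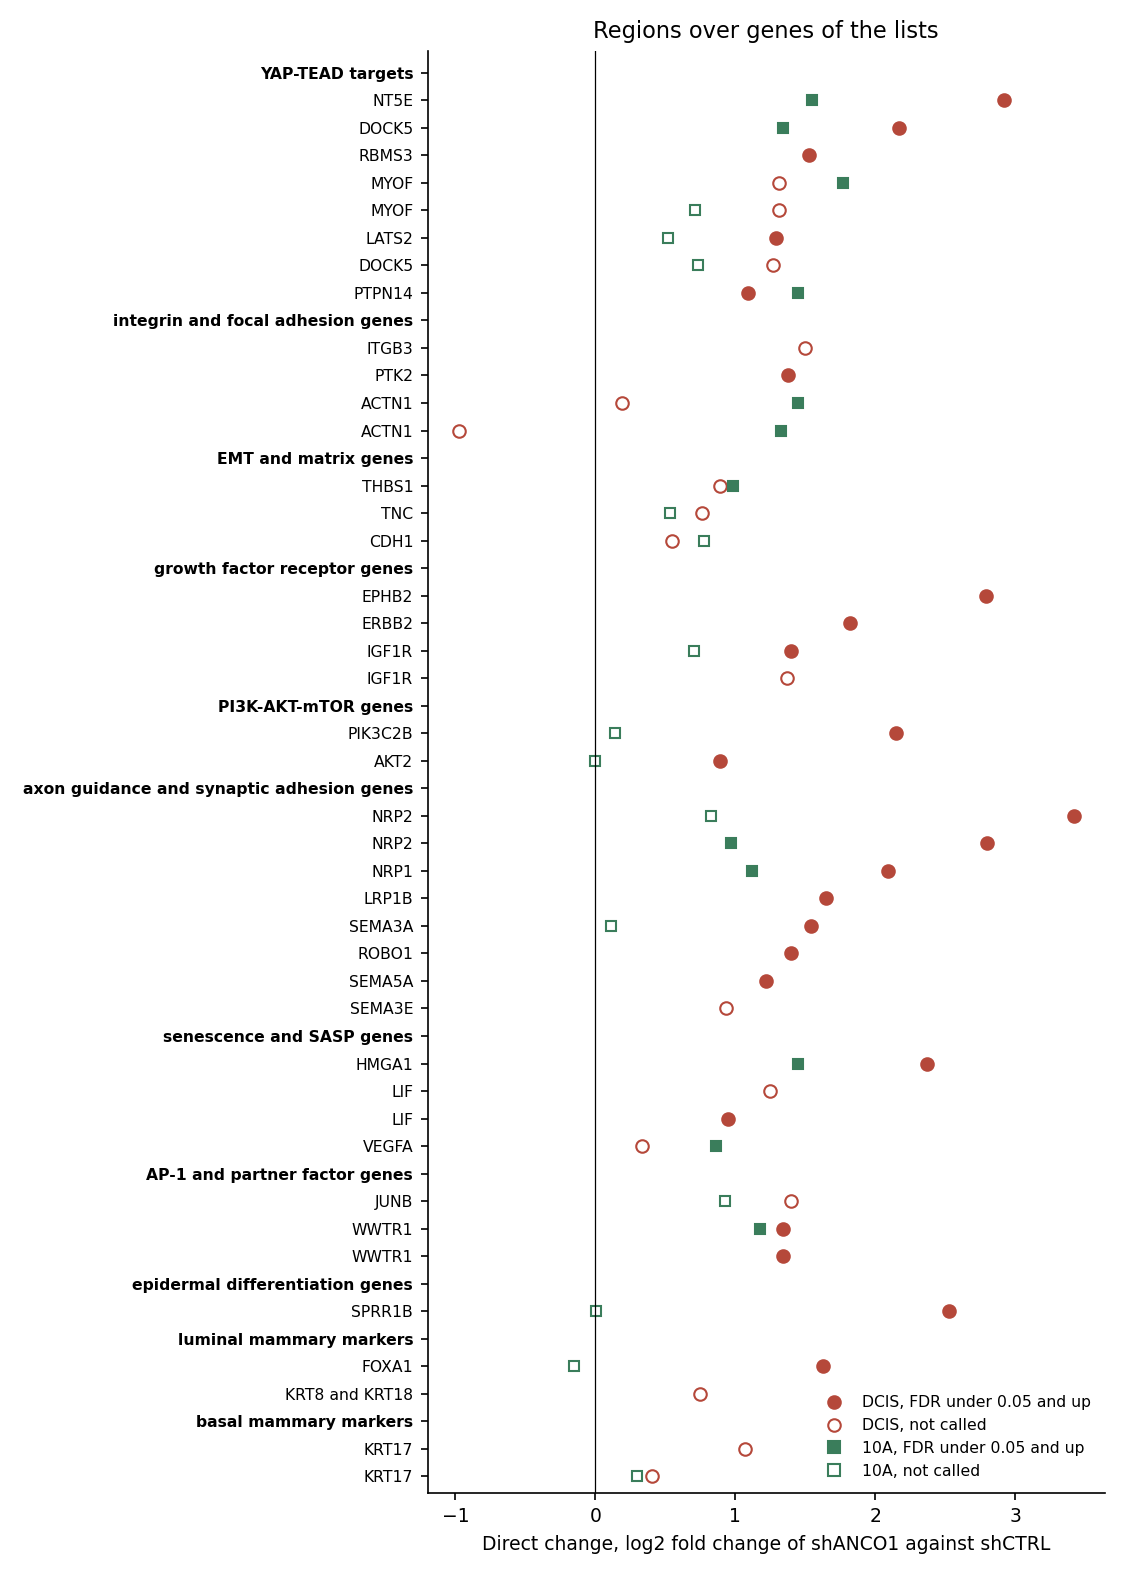
Log2 fold change of shANCO1 over shCTRL at regions found only in DCIS shANCO1 over genes of the lists, 1 gene left out, in DCIS (circles) and 10A (squares), taken from the direct region that shares the most bases. Filled symbols are up at FDR under 0.05, open symbols were not called, and a missing square means that 10A had no tested region. NRP2 had the highest DCIS value of these lists at 3.42, and ACTN1 the lowest at -0.98.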

How the data were processed

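H3K27Ac and input libraries of 10A and DCIS cells, 3 per group in 8 groups, were aligned by the authors with BWA and Rsubread to GRCh38 and deduplicated with SAMtools. The submitters' processing notes also name FastQC and HOMER. The authors tested windows with csaw, merged them into regions and annotated genes with ChIPpeakAnno. The deposited log2 fold changes belong to 1 window per region, and the deposited FDR values are adjusted p-values per region, computed by the authors over each table. Normalization, filters and the merging distance are not given in the sources used here, nor whether each group was tested against its own input. The depth is unknown, so no counting interval is given. The deposited columns hold the authors' own comparisons, and they are used here because the regions carry no other values.

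Regions were intersected with a minimum overlap of 1 bp. Where several direct regions met a region, its fold change came from the one sharing the most bases, and it counted as up if any was up at FDR under 0.05. Start sites and exons came from GENCODE 44 protein-coding transcripts, on GRCh38. Motifs were searched on both strands in 500 bp at the midpoint. Python 3.11.15, numpy 2.4.6, pandas 2.3.3, scipy 1.17.1, pysam 0.24.0 and matplotlib 3.10.9 were used, and the interval and motif functions were tested on simulated data. Named regions were the 10 largest and 3 lowest DCIS changes among called direct regions of at least 5 windows, the 8 genes with most regions, the 5 widest, the 5 largest groups, the 5 lowest 10A FDR values and the genes of the lists. The values of 1 listed gene and 1 sequence are not reported here. Regions and lists were chosen with earlier results of these data known.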

Additional observations from a re-analysis of the deposited data

How the results depend on the processing

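No paired analysis was possible because the deposited values are per group, and leaving out single replicates could not be run for the same reason. The 1958 regions became 1199 when those within 1 kb of another table's region were dropped, 892 at 5 kb and 177 with at least 5 windows. The share up in DCIS, 58.8%, became 45.9% at FDR under 0.01, 64.6% at FDR under 0.1, 38.8% with a change at least 1 above the table median and 64.9% for regions with no mark of another table within 5 kb. The share up in 10A, 26.4%, became 14.1% at FDR under 0.01, 33.4% at FDR under 0.1, 16.6% with a log2 fold change of at least 1, 0.255% with a change at least 1 above the table median and 36.8% among regions tested in 10A. The share near a start, 18%, became 22.9% at 2.5 kb, 46.3% by the authors' promoter label and 13.3% with no mark within 5 kb. The AP-1 share, 17.7%, became 5.92% in 200 bp and 47.2% in 1000 bp. Among alternatives chosen after seeing the data, the DCIS share was 63.5% where the direct region met no mark of another table, 64.2% with at least 2 windows and 58.8% without regions of mostly repeated words. The share over other DCIS shANCO1 regions was 20.8% at FDR under 0.01 and 32.6% at FDR under 0.1.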
